A study of Capra hircus with 6 samples.

Results

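The Hedgehog reception genes of dermal papilla cells (DPCs) were examined in cultures with and without all-trans retinoic acid (ATRA). They were the receptor genes PTCH1 and SMO, the co-receptor genes GAS1 and BOC, the ligand-binding inhibitor gene HHIP, the cytoplasmic inhibitor gene SUFU, and the transcription factor genes GLI1, GLI2, and GLI3. These 9 genes were taken by symbol. A row was found for 8 of them among 15944 genes listed, and all 8 were among the 12588 genes tested. HHIP was not analysed here. All cells were wild-type primary DPCs of secondary hair follicles from Albas cashmere goats (Capra hircus) aged 3 years, used between passages 4 and 7. The control group held 3 libraries from cells in standard medium without ATRA, and the ATRA-treated group held 3 libraries from cells given ATRA at 0.1 mM for 24 h. The cells came from 3 goats, but the labels do not tie libraries to animals. All 6 libraries carry the batch label 1.

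Hedgehog ligands bind PTCH1 together with a co-receptor such as GAS1, BOC, or CDON. Binding releases SMO from its inhibition by PTCH1, and SMO then acts at the primary cilium to free GLI2 and GLI3 from SUFU. Full-length GLI2 is mainly an activator of transcription, and GLI3 is mainly processed to a repressor. GLI1 is an activator whose own gene is a classical target of the pathway, as are PTCH1 and HHIP, so their transcripts are widely used as readouts. In the hair follicle, the epithelial cells secrete SHH and the dermal papilla receives it. ATRA, the active form of vitamin A, acts through nuclear retinoic acid receptors.

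Libraries held 35532339 to 38012771 counts. Counts were scaled by TMM and are given as normalized CPM, that is, counts relative to the scaled library total. The median log₂FC of all genes tested was 0.04 with TMM and 0.52 with library size only. Among 18 markers of dermal papilla or dermal fibroblasts, 12 had at least 1 CPM in every control library and 10 did in every ATRA library. Their summed level was 54900 to 57600 CPM in the control group and 2470 to 2550 CPM with ATRA. Most of that sum was COL1A1, VIM, and ACTA2, and the list did not move as one: TRPS1 rose from 22.8 to 61.0 CPM, and LEF1 and FGF7 fell less, from 16.1 to 11.1 and from 25.7 to 21.9 CPM. ACTA2, the α-smooth muscle actin gene used to identify these cells, had mean levels of 6580 and 8.37 CPM, and its reads could be shared with the near-identical ACTG2. The DPC markers PROM1 (CD133), ALPL, and CORIN had no more than 1 count in any library. The study reported positive immunofluorescence of these cells for α-smooth muscle actin and CD133, which is a measure of protein and not of RNA. The 6 keratinocyte markers together had 0.405 to 0.741 CPM in the control group and 0.0967 to 0.139 CPM with ATRA. The 5 endothelial markers together had 0.903 to 1.24 and 6.19 to 9.16 CPM. PECAM1 made most of the latter, while CDH5 had no more than 1 count in any library. The leukocyte markers with a row (2 of 4) had 2.60 to 5.70 CPM in the control group and 10.6 to 11.8 CPM with ATRA. CD68 made nearly all of this, with means of 4.14 and 11.0 CPM, while CD3E had 0.0211 and 0.0774 CPM. The melanocyte markers with a row (2 of 5) had 16.1 to 17.6 and 32.2 to 39.0 CPM, with a rise of MITF from 13.0 to 32.7 CPM and a fall of PMEL from 4.01 to 2.15 CPM. The 4 smooth muscle or pericyte markers had 377 to 385 and 13.4 to 15.7 CPM. CSPG4 made most of both, with means of 381 and 14.4 CPM. DES fell from 0.503 to 0.165 CPM, and MYH11 overlapped at 0.367 and 0.310 CPM. The part of these shifts in the results below was not tested. In bulk libraries, fewer cells of a type and less RNA per cell cannot be told apart.

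The 3 GLI genes moved apart. GLI1 was nearly lost with ATRA, GLI2 fell 2.41-fold, and GLI3 rose. GLI1 had 38, 22, and 38 counts in the control libraries and 2, 1, and 0 counts in the ATRA libraries. The lowest control library held more GLI1 reads than all ATRA libraries together. Its level was 1.03 ± 0.303 CPM in the control group and 0.023 ± 0.0231 CPM with ATRA (SD, n = 3 each). Over each group, 98 and 3 counts give a level 44.0-fold lower with ATRA, with an exact 95% counting interval from 14.6-fold to 217-fold. The fitted log₂FC was -5.27 (standard error 0.589, adjusted p = 1.72e-07). This size rests on the 3 counts left, and GLI1 passed the expression filter only through the control group. With a prior count of 2 the log₂FC was -3.82, and as a difference of mean log2(CPM + 1) it was -0.98.

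GLI2 had 31.5, 30.0, and 32.3 CPM in the control libraries and 12.2, 13.6, and 13.0 CPM with ATRA. The groups lay far apart, and the highest ATRA library was below the lowest control library. Its log₂FC was -1.27 (standard error 0.0809, adjusted p = 5.56e-11). GLI3 moved the other way, from 43.9, 40.3, and 46.9 CPM to 62.7, 66.2, and 64.0 CPM. All ATRA libraries were above all control libraries. Its log₂FC was 0.56 (standard error 0.0689, adjusted p = 6.41e-07), a 1.47-fold rise that did not reach the study's threshold of |log₂FC| above 1.

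SUFU, which holds GLI proteins in the cytoplasm, had 25.4, 22.9, and 24.8 CPM in the control group and 32.3, 31.8, and 32.6 CPM with ATRA. The groups did not overlap, and the ATRA libraries were the more alike. SUFU rose 1.32-fold (log₂FC 0.40, standard error 0.0738, adjusted p = 6.88e-05).

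Among the receptors, PTCH1 rose and SMO did not pass the test. PTCH1, the ligand-binding receptor, had 4.25, 4.58, and 5.35 CPM in the control libraries and 6.08, 7.10, and 6.36 CPM with ATRA. Every ATRA library was above every control library, although by little, since the highest control library reached 5.35 CPM. Its log₂FC was 0.46 (standard error 0.134, adjusted p = 0.00442), a 1.38-fold rise. Both PTCH1 and GLI1 are classical targets of the pathway, and here PTCH1 was higher with ATRA while GLI1 was lower. SMO, the signal transducer, had 122, 116, and 116 CPM in the control group and 124, 121, and 124 CPM with ATRA. The groups overlapped. Its log₂FC was 0.06 (standard error 0.0546, adjusted p = 0.344).

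Both co-receptor genes fell, GAS1 far more than BOC. GAS1, a membrane-anchored protein first found in growth-arrested fibroblasts, had 323, 371, and 339 CPM in the control libraries and 12.3, 14.1, and 15.2 CPM in the ATRA libraries. This was a 24.9-fold fall (log₂FC -4.64, standard error 0.0823, adjusted p = 3.72e-19). BOC, an immunoglobulin-family protein, had 8.96, 9.15, and 8.93 CPM in the control group and 4.93, 5.15, and 5.63 CPM with ATRA. It fell 1.72-fold (log₂FC -0.78, standard error 0.116, adjusted p = 5.96e-06). For both genes the groups did not overlap. CDON, another co-receptor outside the 9 genes, was at 18.2 ± 0.127 and 18.7 ± 1.18 CPM (SD, n = 3 each, log₂FC 0.04, standard error 0.0831, adjusted p = 0.680).

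**Figure D1:**
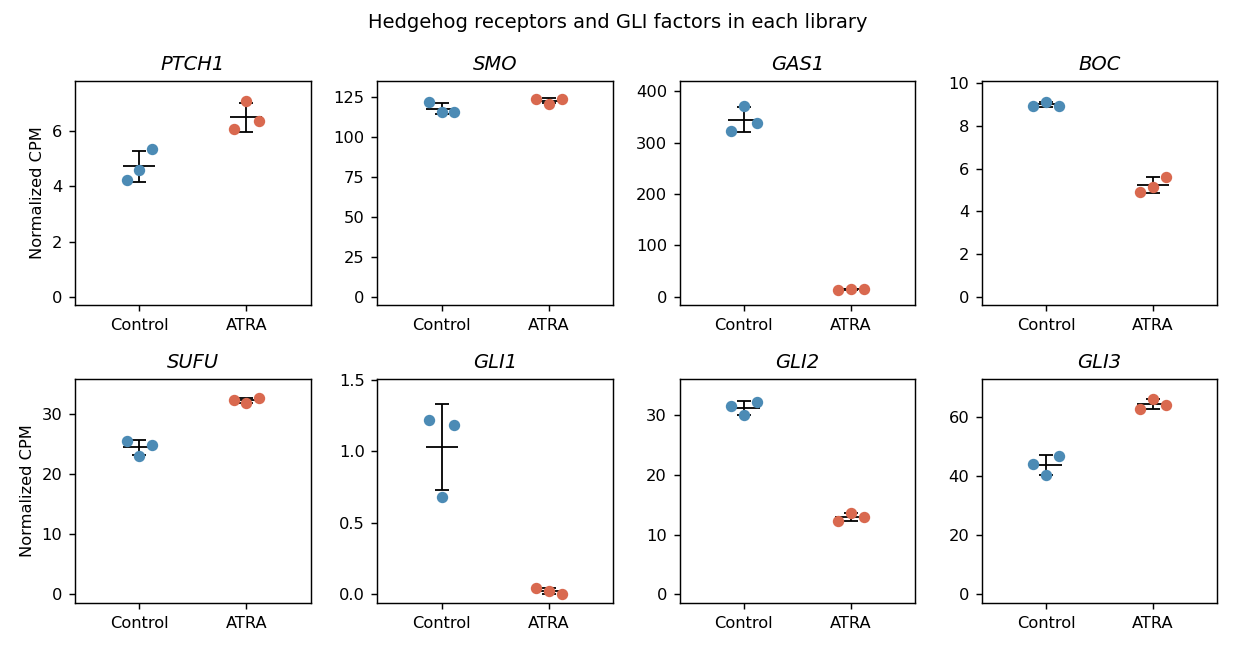
Normalized CPM (linear vertical axes from 0) of the 8 genes in the 3 control libraries (blue points) and 3 ATRA libraries (red points), with the mean and SD in black. GLI1, GLI2, GAS1, and BOC were lower with ATRA, PTCH1, SUFU, and GLI3 were higher, and SMO overlapped at 116 to 124 CPM.

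By an adjusted p under 0.05, 3 of the 8 genes were higher with ATRA and 4 were lower, against 40.9% higher and 38.7% lower among all genes tested. By the study's thresholds of |log₂FC| above 1 and an unadjusted p under 0.05, 0 were higher and 3 were lower (GLI1, GLI2, and GAS1), against 13.7% and 17.3% of all genes. The groups did not overlap for 7 of the 8 genes, against 80.1% of all genes. GLI1, which is in the 4 lower, the 3 lower, and these 7, passed the expression filter only through the control group. With a filter of at least 1 CPM in at least 3 libraries, which removed GLI1, 2 genes were lower by the study's thresholds. The share of all genes was not taken with that filter. With 8 genes, these counts are a description, and whether they are particular to the Hedgehog genes was not tested.

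The direction of each of the 8 genes was the same under TMM, RLE, upper-quartile, and library-size scaling, but the size of the smaller changes depended on it. With library size only, where the median of all genes was itself 0.52, the log₂FC was 1.04 for GLI3, 0.94 for PTCH1, 0.88 for SUFU, and 0.54 for SMO (adjusted p = 1.02e-07). The log₂FC of BOC was then -0.31 (adjusted p = 0.0194) and that of GLI2 was -0.79, short of the threshold. By the study's thresholds, library size only gave 1 gene higher and 2 lower, against 26.9% and 11.7% of all genes. By an adjusted p under 0.05 it gave 4 higher and 4 lower, against 62.9% and 22.7%. SMO also passed the test with upper-quartile scaling (log₂FC 0.13, adjusted p = 0.0317). GAS1 and GLI1 stayed far below the control group at -4.16 and -4.82.

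**Figure D2:**
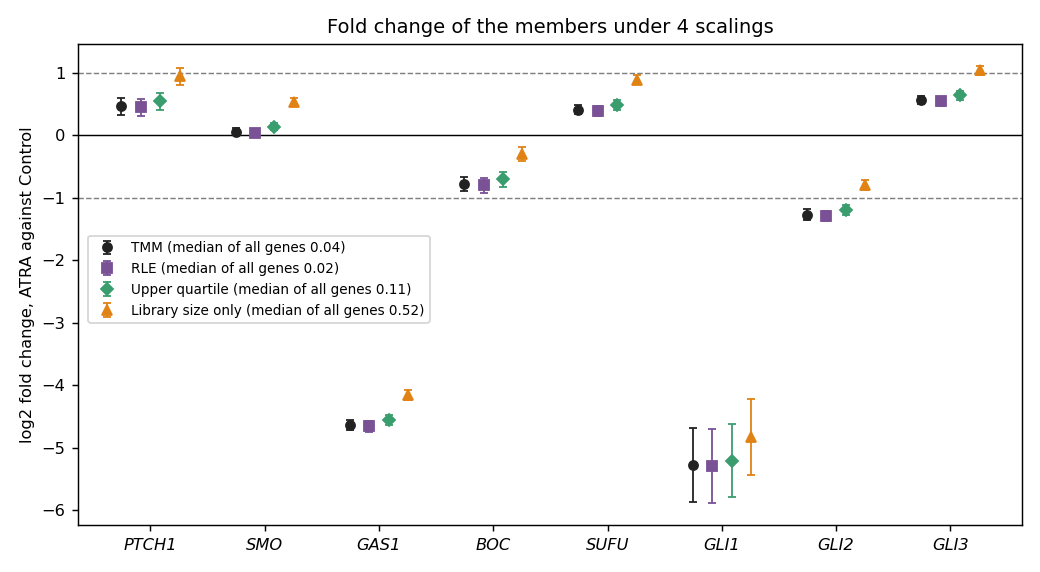
The log₂FC of ATRA against control (vertical axis, with standard error bars) of the 8 genes under 4 scalings, with the median of all genes in the key and dashed lines at -1 and 1. Library size only moved every gene up, as it moved the median of all genes from 0.04 to 0.52, and no gene crossed 0.

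Ratios of 2 genes within a library do not depend on the scaling. They were tested for 5 pairs. GLI1/PTCH1 was chosen after the values were seen and is described without a test. Gene length differs between the genes of a pair, so only the change of a ratio between the groups is read, not its level. GLI3 had 1.39, 1.34, and 1.45 reads for each GLI2 read in the control libraries and 5.12, 4.85, and 4.92 with ATRA. The ratio was thus 3.56 times higher with ATRA. SUFU had 0.805, 0.763, and 0.769 reads for each GLI2 read in the control group and 2.64, 2.33, and 2.50 with ATRA, a 3.20-fold change. Both ratios were higher in each ATRA library than in any control library.

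PTCH1 had 0.0349, 0.0394, and 0.0461 reads for each SMO read in the control libraries and 0.0493, 0.0586, and 0.0513 with ATRA. The groups lay close to each other, with a 1.33-fold change of the ratio. BOC had 0.0277, 0.0246, and 0.0264 reads for each GAS1 read in the control group and 0.400, 0.366, and 0.370 with ATRA, a 14.4-fold change. With 1 added to each count because of the 0 in an ATRA library, the ratio of GLI1 to GLI2 was 0.0237 to 0.0398 in the control group and 0.00186 to 0.00566 with ATRA. That of GLI1 to PTCH1 was 0.154 to 0.293 and 0.00379 to 0.0114. The ATRA values of both are set largely by the added count, so no fold is read from them. In the 5 tested pairs the groups did not overlap (exact permutation test, two-sided, p = 0.1 and adjusted p = 0.1 for each pair, the smallest that 3 libraries against 3 allow). GLI1 passed the expression filter only through the control group, so nothing is drawn from the test of GLI1/GLI2. The share of other gene pairs without overlap was not taken.

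**Figure D3:**
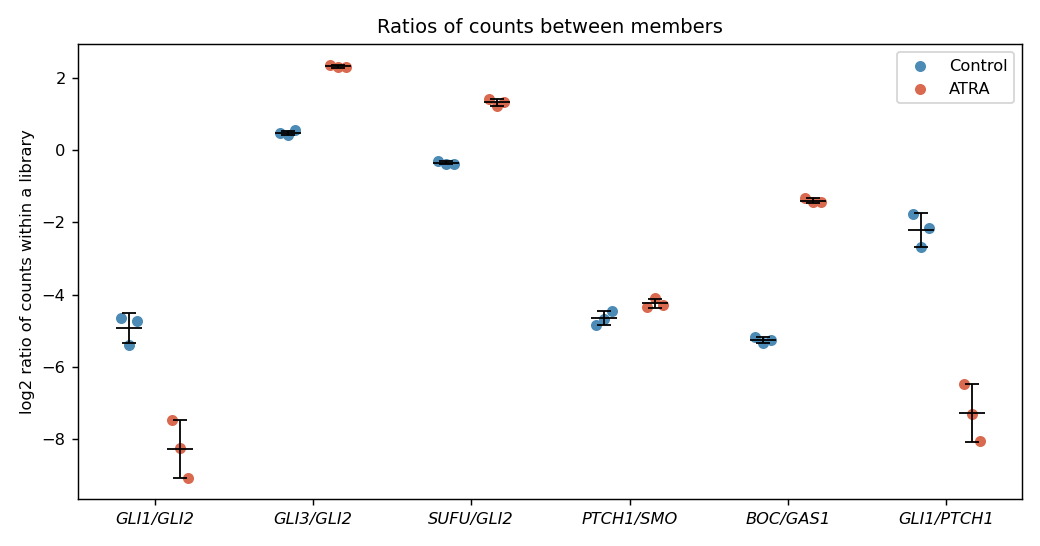
The log2 ratio of counts within each library (vertical axis) for 6 pairs of genes in the control group (blue) and the ATRA-treated group (red), with mean and SD in black. GLI3/GLI2, SUFU/GLI2, and BOC/GAS1 were higher with ATRA, GLI1/GLI2 and GLI1/PTCH1 were lower, and PTCH1/SMO differed least.

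The Hedgehog ligands were scarcely transcribed in either group. No SHH read was counted in the control group, and the ATRA libraries held 0, 2, and 4. IHH had no more than 1 count in any library. DHH was likewise at 0 in the control group and had 8, 10, and 11 counts with ATRA, which was at least 2.40-fold higher against a floor of 3 counts per library, at a level of 0.226 ± 0.0404 CPM (SD, n = 3). At this depth, levels under the floor were not distinguishable from 0. Of the genes that prepare and release ligands, HHAT, which attaches palmitate to them, rose from 2.93 ± 0.129 to 7.02 ± 0.875 CPM (log₂FC 1.26, standard error 0.144, adjusted p = 2.37e-07). DISP1, which releases them from the membrane, rose from 6.69 ± 0.521 to 14.2 ± 0.516 CPM (log₂FC 1.09, standard error 0.103, adjusted p = 1.95e-08). SCUBE2, a secreted protein that helps this release, fell from 2.18 ± 0.660 to 0.397 ± 0.0503 CPM (SD, n = 3 each, log₂FC -2.45, standard error 0.302, adjusted p = 6.29e-07). DISP2 and SCUBE3 had no more than 1 count in any library, and SCUBE1 was not analysed here.

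Of the other receptor and co-receptor genes, LRP2 had 1 count in 1 control library, and GPC5 had 0 counts in the control group and 1, 0, and 4 with ATRA. GPC3, a glypican that competes with PTCH1 for ligand, fell from 1.21 ± 0.396 to 0.360 ± 0.107 CPM (SD, n = 3 each, log₂FC -1.74, standard error 0.343, adjusted p = 1.48e-04).

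The proteins between SMO and the GLI factors were followed through a list of 32 genes, of which 31 were tested. By an adjusted p under 0.05, 16 were higher and 8 were lower with ATRA, with a median log₂FC of 0.17. Among all genes, 40.9% were higher and 38.7% lower. With library size only, 24 were higher and 2 lower, against 62.9% and 22.7% of all genes. KIF7, a kinesin of the ciliary tip that works with the GLI factors, rose from 58.5 ± 4.49 to 161 ± 5.82 CPM (SD, n = 3 each, log₂FC 1.46, standard error 0.0647, adjusted p = 2.27e-13). MOSMO, which lowers SMO at the cell surface and is listed as C25H16orf52, rose with a log₂FC of 1.17 (standard error 0.148). The protein kinase A regulatory subunit genes PRKAR2A and PRKAR1A fell, with a log₂FC of -1.16 (standard error 0.0599) and -0.67 (standard error 0.0639). Protein kinase A phosphorylates the GLI proteins and starts the processing of GLI3.

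The cilium carries the pathway, and all 47 ciliary transport and assembly genes with a row were tested. Of these, 25 were higher and 13 lower by an adjusted p under 0.05 (median log₂FC 0.27), or 37 higher and 7 lower with library size only. The shares of all genes were 40.9% and 38.7%, or 62.9% and 22.7% with library size only. TTBK2, the kinase that starts cilium assembly, and BBS4, a subunit of the BBSome, rose with a log₂FC of 1.35 (standard error 0.0793) and 1.23 (standard error 0.0748). CC2D2A, of the transition zone, and IFT81, of the intraflagellar transport train, fell with a log₂FC of -1.81 (standard error 0.118) and -1.43 (standard error 0.0820).

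Other textbook GLI target genes did not move in one direction. Of 18 tested, 7 were higher and 6 lower by an adjusted p under 0.05 (median log₂FC 0.02), or 12 higher and 6 lower with library size only. Of all genes, 40.9% were higher and 38.7% lower, or 62.9% and 22.7% with library size only. FOXL1 and HSD11B2, among the 7 higher, passed the expression filter only through the ATRA group. FOXM1, among the 6 lower, passed it only through the control group. The forkhead genes FOXC2 and FOXF1 rose. FOXC2 went from 0.711 ± 0.0329 to 31.5 ± 2.50 CPM (log₂FC 5.46, standard error 0.133), and FOXF1 from 3.01 ± 0.379 to 19.7 ± 1.91 CPM (SD, n = 3 each, log₂FC 2.71, standard error 0.123). GREM1, a secreted BMP antagonist, fell from 1220 ± 37.2 to 18.5 ± 0.724 CPM (SD, n = 3 each, log₂FC -6.05, standard error 0.0718). FOXM1, a forkhead factor of dividing cells, had 418, 344, and 467 counts in the control libraries and 1, 5, and 2 with ATRA. Most of these genes have other regulators as well, and the share of Hedgehog signaling in their changes was not tested.

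The Hedgehog signaling pathway of the KEGG annotation in the deposited table held 46 genes, including the 8 described above. Of its 40 tested genes, 17 were higher and 15 lower by an adjusted p under 0.05 (median log₂FC 0.02), and 26 and 7 with library size only. The shares of all genes were again 40.9% and 38.7%, or 62.9% and 22.7%. By the study's thresholds, 2 were higher and 5 lower, against 13.7% and 17.3% of all genes. With the 8 genes left out, 14 of 32 were higher and 11 lower by an adjusted p under 0.05, and 2 were higher and 2 lower by the study's thresholds. BCL2, an inhibitor of apoptosis in this pathway list, fell from 4.66 ± 0.684 to 0.905 ± 0.213 CPM (SD, n = 3 each, log₂FC -2.36, standard error 0.211).

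**Figure D4:**
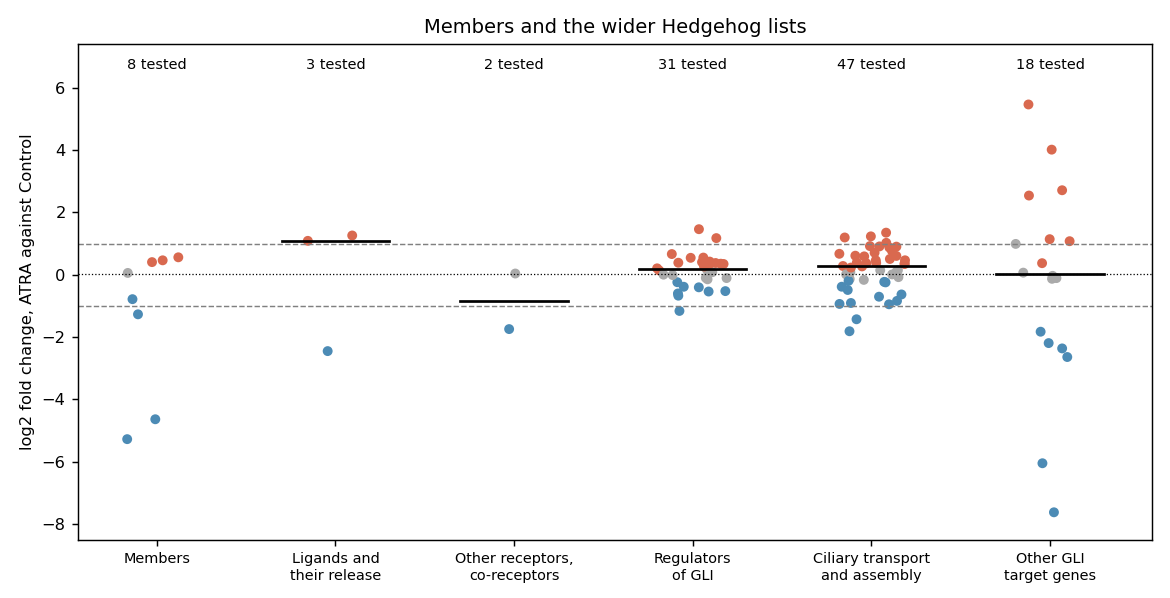
The log₂FC of ATRA against control (vertical axis) for each tested gene of the 8 members and 5 wider lists, with red for higher and blue for lower at an adjusted p under 0.05, grey for neither, a black bar at each wider list's median, dashed lines at -1 and 1, and a dotted line at the median of all genes (0.04). The regulators and ciliary genes lay mostly within the dashed lines, and the other GLI target genes spread from -7.62 to 5.46.

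Among the 8 genes, GAS1 had the largest absolute log₂FC of those with a mean of at least 1 CPM over all 6 libraries, which leaves out GLI1. The genes nearest to its pattern over the 6 libraries were C2, FAM83D, and DIAPH3, at Euclidean distances of 0.143, 0.168, and 0.208 between centred log2 CPM profiles, with a log₂FC of -4.66, -4.71, and -4.63. The libraries fall in 2 groups, so such a likeness is mostly one of the fold change.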

How the data were processed

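RNA-seq of 6 libraries (3 control, 3 ATRA) was analysed. Libraries were made by the authors from poly(A) RNA, with fastp and TrimGalore for read trimming. The submitters' processing notes name HISAT2, featureCounts, and DESeq2, with no version. The genome build is not given in the sources used here, so no coordinates are printed, and neither is strandedness. The authors deposited raw read counts per gene, as whole numbers. Low genes were removed with filterByExpr, TMM factors were applied, and ATRA was set against control in the robust quasi-likelihood model of edgeR (two-sided, no covariate, prior count 0.125), with Benjamini-Hochberg adjustment over all 12588 genes tested. The t.test function named in the study's methods served as an alternative, since a count model suits the deposited values. Standard errors were derived as |log₂FC| divided by √F. The interval for GLI1 is exact (Clopper-Pearson, conditional on the sum of counts) and, like the floor of 3 counts, covers counting error only.

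The members and lists were chosen with earlier results of these data known. Named from the lists were the ligand and receptor genes, of which 1 is not reported here, and, from each other list, the 2 genes with the largest log₂FC in each direction among those with at least 1 mean CPM. A gene was matched by row name, then by the symbol column, and all 15944 row names matched RefSeq's table of symbols. Transcript lengths were not used here, so levels are not compared between genes. The labels do not name separate cultures, and p-values then measure only the spread between these libraries. No pair within a group agreed within sampling noise (chi-square per degree of freedom 5.01 to 18.4). Same-numbered libraries did not deviate together (correlations from -0.0682 to 0.0763), so the numbers were not used as pairs. The tests were also run on simulated counts in which few genes changed, as many up as down. Far more genes were called in these data, so that run does not check the scaling here. Versions were R 4.3.3, edgeR 4.0.16, DESeq2 1.42.0, Python 3.11.15, and matplotlib 3.10.9.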

Additional observations from a re-analysis of the deposited data

How the results depend on the processing

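With only 3 libraries per group, rank and permutation tests cannot go under 0.1, and GLI1 and the ligands rest on few reads. Fits were repeated with RLE, upper-quartile, and library-size scaling, DESeq2, the t.test function of R (log2(CPM + 1)), no filter, a filter of at least 1 CPM in at least 3 libraries (which removed GLI1), a prior count of 2, a block for the replicate number, and the omission of single libraries. No member changed sign. The 0 members called higher became 1 with library size only and 3 with an adjusted p under 0.05 of any size. SMO passed the test with upper-quartile scaling (log₂FC 0.13) and library size only (0.54). Of the 101 tested genes of the wider lists, 14 were called higher, against 13.7% of all genes. FOXL1 and HSD11B2, among these 14, passed the expression filter only through the ATRA group. With library size only, 28 were called higher, against 26.9% of all genes. R's t.test function gave 8, and the share of all genes was not taken for it. For the t.test function the cause was not tested, and library size only moved the median of all genes. The 3 members called lower were 2 with library size only (GLI2 short of the threshold), with the t.test function (GLI1 short of it), and with the stricter filter. For the stricter filter, too, the share of all genes was not taken.

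With the replicate number as a block, 0 members were higher and 3 lower, and the log₂FC was -5.27 for GLI1, -1.27 for GLI2, 0.56 for GLI3, 0.46 for PTCH1, 0.06 for SMO, 0.41 for SUFU, -4.64 for GAS1, and -0.79 for BOC. The wider lists then had 15 higher and 11 lower genes. Without the block these were 14 and 11 of 101 tested, against 13.7% and 17.3% of all genes. Leaving out each library in turn gave 0 members higher and 3 lower each time. The shares of all genes were not taken for the block or for the omission of libraries. These counts are therefore not set against all genes. The log₂FC then ranged from -6.09 to -4.78 for GLI1, from -1.32 to -1.24 for GLI2, from 0.50 to 0.60 for GLI3, from 0.38 to 0.55 for PTCH1, and from -4.72 to -4.56 for GAS1. The log2 ratio of PTCH1 to SMO, which differed by 0.41 between the groups, ranged from 0.31 without Control replicate 1 to 0.51 without Control replicate 3.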

Other observations

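The deposited GO annotation divides regulators of SMO signaling by sign, and these groups were examined after the members' values had been seen. Of 15 tested genes annotated as negative regulators, 12 were higher and 1 was lower with ATRA by an adjusted p under 0.05, with a median log₂FC of 0.50 against 0.04 for all genes. Of all genes, 40.9% were higher and 38.7% lower. With library size only, the median was 0.98 against 0.52 for all genes. Without the members PTCH1 and SUFU, 10 of 13 were higher and 1 was lower. SERPINE2, a secreted serine protease inhibitor, rose from 21.2 ± 1.38 to 220 ± 6.48 CPM (SD, n = 3 each, log₂FC 3.38, standard error 0.0669). KCTD6 and KCTD21, adaptors of cullin 3 ligases, rose with a log₂FC of 1.01 (standard error 0.0898) and 0.79 (standard error 0.0937). The single gene that fell was GPC3. The genes named here were chosen after their values were seen.

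Of 20 tested genes annotated as positive regulators, 9 were higher and 9 lower, near the 40.9% and 38.7% of all genes, with a median log₂FC of 0.10 (0.58 with library size only). KIF7 and ULK3 hold both annotations. By the study's thresholds, 3 were higher and 3 lower, against 13.7% and 17.3% of all genes. FOXA1, KIF7, and TUBD1 rose with a log₂FC of 4.72 (standard error 0.644), 1.46 (standard error 0.0647), and 1.15 (standard error 0.150). FOXA1 passed the expression filter only through the ATRA group. The homeobox genes PRRX1 and PRRX2, which mark mesenchyme, fell with a log₂FC of -3.47 (standard error 0.0621) and -1.30 (standard error 0.0582). NDST1 fell with a log₂FC of -1.27 (standard error 0.0672). A difference between the groups of positive and negative regulators was not tested.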
